A study of Mus musculus with 31 samples.

Results

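Livers of mice that had lost both Myc and Mlx were compared with livers that had lost Myc only, at 5 months of age. The comparison used 11 of the 31 libraries of the series, 5 labelled DKO and 6 labelled MycKO, and all 13397 genes that passed a filter on low counts. DKO mice carried loxP-flanked alleles of Mlx and Myc (Mlxloxp/loxp and Mycloxp/loxp), and MycKO mice carried Mycloxp/loxp without the Mlx allele. Both groups had Cre-ERT2, a tamoxifen-dependent recombinase, at the Rosa26 locus, on a B6.129 stock with the allele Gt(ROSA)26Sor tm1(cre/ERT2)Tyj. All received tamoxifen intraperitoneally at 75 mg/kg daily for 5 days from 28 days of age, and livers were taken at 5 months after a 14 h fast. The Rosa26 locus is active in most cell types, so deletion was not restricted to hepatocytes, and the sources used here do not say which exons were flanked. The 5 DKO libraries came from males, and the 6 MycKO libraries from 4 males and 2 females (MycKO 3 and MycKO 4). A second pair of groups had Myc intact. It held 4 MlxKO libraries (Mlxloxp/loxp with the same Cre, all males) and 6 WT libraries (C57/B6, 4 males and 2 females). Since WT is labelled C57/B6 and MlxKO carried the Cre, strain and Cre cannot be told apart from loss of Mlx in that pair. Whether each library is a different animal is not stated in the labels, and p-values therefore speak only of the spread among these libraries, part of which may be technical.

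Mlx is a basic helix-loop-helix leucine zipper protein. It binds DNA as the partner of ChREBP (gene Mlxipl) or MondoA (gene Mlxip), which sense glucose phosphates and turn on genes for glycolysis, fructose use and fat synthesis through carbohydrate response elements, pairs of E boxes set a short distance apart. Mlx also pairs with Mxd proteins and Mnt, repressors that compete with Myc for E boxes, and in liver ChREBP is the better known of its partners.

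Total counts per library ran from 18226467 to 28476797 in DKO and from 19163529 to 23704156 in MycKO, and 3 counts, the level taken as the floor, equal 0.105 to 0.165 CPM (each count divided by its library's TMM-adjusted total, on one scale, the unit of all levels here) in DKO and 0.127 to 0.157 CPM in MycKO. The hepatocyte marker list summed to between 85356 and 122160 CPM in DKO and between 88499 and 136890 CPM in MycKO. Transcripts of the mitochondrial genome took 6.85% ± 1.60 of counts (SD, n = 5) in DKO and 5.03% ± 0.473 (n = 6) in MycKO. MycKO 5 lay apart on the second principal component, together with WT 2 and WT 5, and MycKO 1 and MycKO 2 on the third, together with WT 1.

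The groups also differed at a pair of near-identical genes whose counts cannot be separated with certainty. Kpna2, which encodes an importin (chromosome 11, 106988629 to 106999541, GRCm38), had 0.0547 to 0.820 CPM in DKO and 33.1 to 58.1 CPM in MycKO. Its copy Gm10184 (chromosome 17, 89908462 to 89910449) had 36.6 to 56.7 CPM in DKO, against 0.434 CPM in MycKO 1 and no counts in the other MycKO libraries. Their sum overlapped, with 37.4 to 57.1 CPM in DKO and 33.1 to 58.4 CPM in MycKO. The 4 MlxKO libraries and both WT females had their counts on Gm10184 as DKO did, and the 4 WT males had theirs on Kpna2 as MycKO did. Across the 21 libraries of this age, 19 genes (0.142% of those tested) parted the same 11 libraries from the other 10 without overlap, and 9 of the 19 lay on chromosome 11, which carries Mlx and 8.14% of the genes tested. Whatever parts these libraries and the deletion of Mlx cannot be told apart within DKO and MycKO, since all DKO libraries fell on one side and all MycKO libraries on the other. With a term added for this division, which rests on the WT females, 78 genes were called (43 higher and 35 lower in DKO) in place of 1592, 42 of them shared, while the median SE of a gene's log2 fold change was 0.48 with the term and 0.20 without it.

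Exon length moved with the comparison as well. In 5 equal classes by exon length, the genes of the shortest class (123 to 2385 bases) had a median log2 fold change, DKO over MycKO, of −0.34, and those of the longest (7426 bases and more) 0.23. The level of the shortest class relative to the longest, taken against the mean of all 21 libraries, was −0.25 to −0.49 on the log2 scale in DKO and −0.05 to 0.60 in MycKO, with no overlap. It ran from −0.06 to −0.45 in MlxKO and from −0.20 to 0.81 in WT. Its part in the results was not tested beyond refitting with length offsets, whose values are given beside some of the results that they moved.

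**Figure D1:**
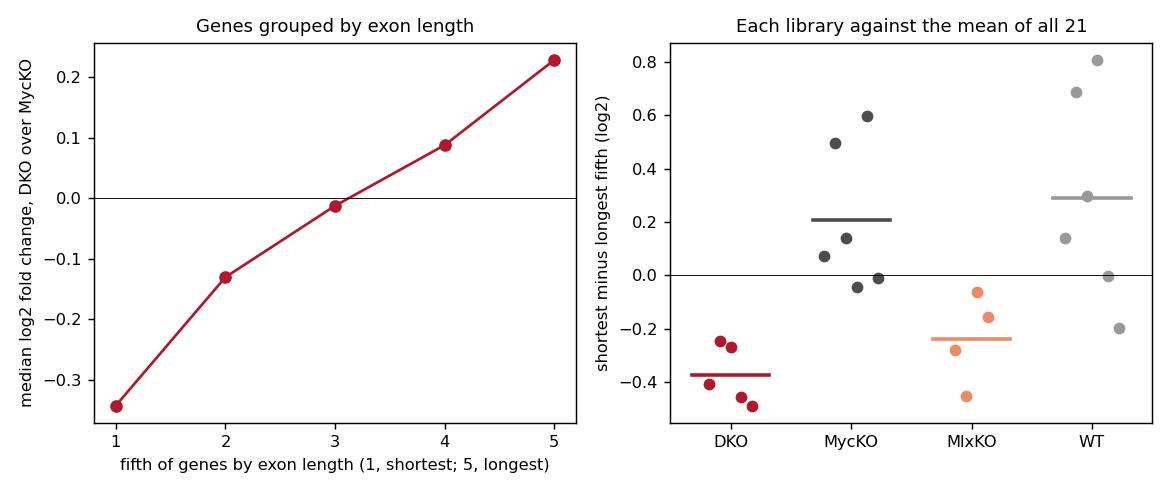
Left, median log2 fold change (DKO over MycKO) of the genes in each of 5 classes by exon length, from −0.34 in the shortest to 0.23 in the longest. Right, the log2 level of the shortest minus the longest class in each library against the mean of all 21 libraries (points; lines, group means), where all 5 DKO libraries lie below all 6 MycKO libraries.

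Mlx (ENSMUSG00000017801, chromosome 11, 101087277 to 101092207, plus strand) was lower in every DKO library than in every MycKO library. It stood at 14.7, 16.7, 17.3, 18.6 and 17.6 CPM in DKO 1 to 5, against 24.7, 24.7, 24.2, 23, 28.3 and 21.4 CPM in MycKO 1 to 6. The log2 fold change was −0.50 ± 0.10 (SE; adjusted p = 0.0052 by edgeR's quasi-likelihood test with Benjamini-Hochberg adjustment, as for all adjusted p-values here), and −0.26 with length offsets (adjusted p = 0.12). Counts over a whole gene include transcripts that lack only the deleted part, so this is no measure of how complete the deletion was. Myc, deleted in both groups, had 0.492 to 2.41 CPM in DKO and 0.720 to 2.61 CPM in MycKO (log2 −0.34 ± 0.47, adjusted p = 0.66).

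Of the 13 listed genes of the Mlx and Mxd network, 11 were tested. Of these 2 fell, Mlx itself and Mycl (18.2%, beside 7.52% lower over all genes). The count was 1 with length offsets and 0 with the term for the division of libraries. Mycl encodes L-Myc, a relative of Myc that pairs with Max. It stood at 5.52, 6.07, 3.98, 3.04 and 4.27 CPM in DKO, against 23.9, 21.2, 36.2, 35.2, 6.03 and 12.1 CPM in MycKO. Only MycKO 5 reached the DKO range, and the log2 fold change was −1.75 ± 0.33 (adjusted p = 0.0035). The partners of Mlx did not pass the test, with log2 −0.24 ± 0.15 for Mlxipl (adjusted p = 0.29) and −0.03 ± 0.35 for Mlxip (adjusted p = 0.96), nor did Max, Mxi1, Mnt, Mga, Mxd1 or Mxd4.

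In the whole comparison 1592 of 13397 genes were called (11.9%), of which 584 were higher (4.36%) and 1008 lower in DKO (7.52%). The median log2 fold change over all genes was −0.02. At least a 2-fold change was seen in 130 of the higher and 306 of the lower genes. The libraries of the groups did not overlap at 957 of the called genes, and at 1497 of all genes tested (11.2%), of which all DKO libraries were lower at 6.18% and higher at 4.99% of the genes tested. The number of calls was 967 without DKO 4, 892 without DKO 5, 903 without MycKO 2 and 1013 without MycKO 5, and 1010 with length offsets (428 higher, 582 lower).

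**Figure D2:**
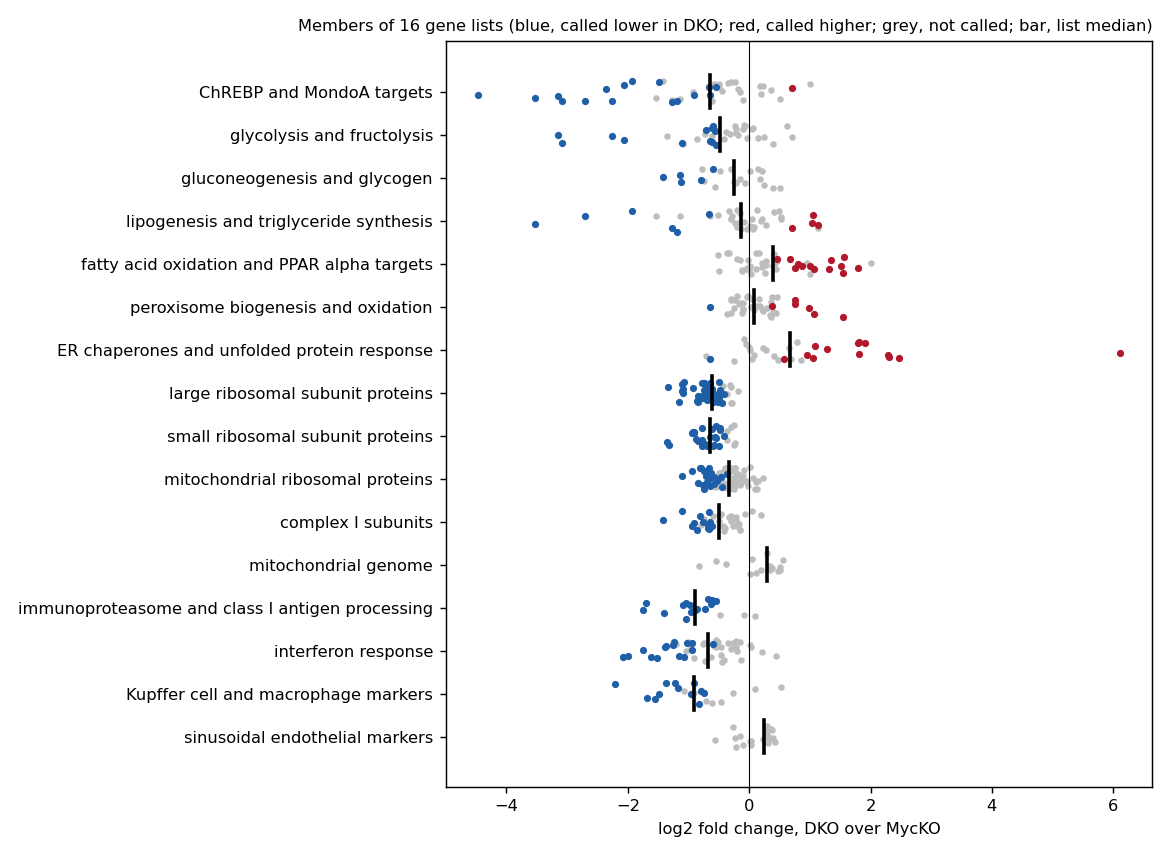
Log2 fold change, DKO over MycKO, of each tested member (points) of 16 gene lists, with called members in colour and the list median as a bar. Genes of sugar use, ribosomal proteins, antigen processing and Kupffer cells lie mostly to the left, and those of the endoplasmic reticulum and fatty acid oxidation to the right. With the term for the division of libraries described in the text, the median of fatty acid oxidation turned to −0.31 and that of the mitochondrial genome to −0.14.

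Known targets of ChREBP and MondoA were mostly lower in DKO. Of 39 members tested 16 fell and 1 rose; the median log2 fold change was −0.65, beside 7.52% lower, 4.36% higher and a median of −0.02 over all genes. The ranges of 12 members did not overlap, beside 11.2% of all genes. The count of lower members was 12 with length offsets and 10 without DKO 1 or without DKO 3. It was 1 with the term for the division of libraries, where the median was −0.73.

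Pklr encodes the liver pyruvate kinase, the last enzyme of glycolysis, and its promoter was among the first in which a carbohydrate response element was worked out, in rat. It is shown because it had the largest fall on the log2 scale in the list of glycolysis and fructolysis and because its window holds a pair of E-box-like sequences. The stretch lies at chr3:89136403-89136519 on the plus strand (RefSeq, GRCm38.p6), with the fixed letters of the motif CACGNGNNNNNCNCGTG in capitals, 170 to 154 bases before the annotated start.
Pklr: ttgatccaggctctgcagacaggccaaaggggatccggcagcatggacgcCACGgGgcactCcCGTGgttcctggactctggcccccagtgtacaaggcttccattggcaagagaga
Searched on both strands from 250 bases before to 50 after the start, this motif was in 15 of 32851 RefSeq windows (0.0457%), and among the 31 members of the ChREBP list with a window it was in that of Pklr. Single E boxes, CACGTG, were in 2349 windows (7.15%) and in 6 of the 31. They were in 2 of the 14 members with a window that were called lower. They were also in 4 of the 16 that were not called (Bhlhe41, Fgf21, Mlxipl and Slc16a1). Khk (chr5:30921480-30921501, plus strand) and Arrdc4 (chr7:68749418-68749439, minus strand) are shown because they were called lower.
Khk: ttccccgtCACGTGacaccgtt
Arrdc4: gtcctgtgCACGTGcactatgg
A match is a description of the letters and not of binding, and no match says nothing of elements outside these windows.

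Pklr stood at 6.07, 11.6, 8.90, 12.5 and 9.36 CPM in DKO, against 42.9, 53.9, 152, 134, 168 and 54.2 CPM in MycKO. All DKO libraries lay far below all MycKO libraries, and the log2 fold change was −3.15 ± 0.37 (adjusted p = 8.3e-05). Genes that bring fructose and other sugars into this path moved with it. Khk, fructokinase, had 63.1, 74.1, 73.3, 46.0 and 61.0 CPM in DKO, against 145, 251, 306, 276, 460 and 233 CPM in MycKO (log2 −2.06 ± 0.34, adjusted p = 0.0014). Tkfc, which phosphorylates the glyceraldehyde that fructose yields, had 48.2, 70.2, 61.9, 68.0 and 72.0 CPM in DKO, against 206, 489, 642, 643, 378 and 241 CPM in MycKO (log2 −2.27 ± 0.22, adjusted p = 4.8e-06). The ranges of both genes were well apart, and Tkfc kept its call with the term for the division of libraries (log2 −2.91, adjusted p = 0.027). Slc2a2, the GLUT2 transporter through which glucose crosses the hepatocyte membrane, had 8.39, 20.3, 19.1, 7.70 and 27.3 CPM in DKO, against 30.7, 58.1, 150, 190, 291 and 167 CPM in MycKO. MycKO 1 lay just above the highest DKO library, and the log2 fold change was −3.08 ± 0.61 (adjusted p = 0.0044).

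Across glycolysis and fructolysis 12 of 36 members fell and none rose; the median log2 fold change was −0.48, beside 7.52% lower and a median of −0.02 over all genes. The fall in shared glycolytic enzymes was smaller than in Pklr, with log2 −0.61 ± 0.13 for the isomerase Gpi1 (adjusted p = 0.0061), −0.56 ± 0.13 for Gapdh (adjusted p = 0.012; 0.067 without WT 1, MycKO 1 and MycKO 2), and −1.11 ± 0.23 for the galactokinase Galk1 (adjusted p = 0.0062). The count of lower members was 7 without MycKO 2 and 2 with the term for the division of libraries. With length offsets 9 members fell and 2 rose. Genes that make or store glucose were lower too, 5 of 21 in the list of gluconeogenesis and glycogen, beside 7.52% lower over all genes, with a median of −0.25 (none, and −0.83, with the term for the division of libraries). Fbp1, fructose bisphosphatase of gluconeogenesis, had 354, 457, 533, 406 and 575 CPM in DKO, against 792, 945, 632, 726, 1113 and 1376 CPM in MycKO (log2 −1.14 ± 0.17, adjusted p = 0.00079). Pygl, the liver glycogen phosphorylase, had 120, 158, 125, 123 and 130 CPM in DKO, against 180, 277, 293, 355, 411 and 264 CPM in MycKO (log2 −1.12 ± 0.17, adjusted p = 0.00084). Neither range overlapped, and the glycogen synthase Gys2 fell by 0.79 ± 0.17 in log2 units (adjusted p = 0.0069). None of the 10 genes of the pentose phosphate pathway was called.

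**Figure D3:**
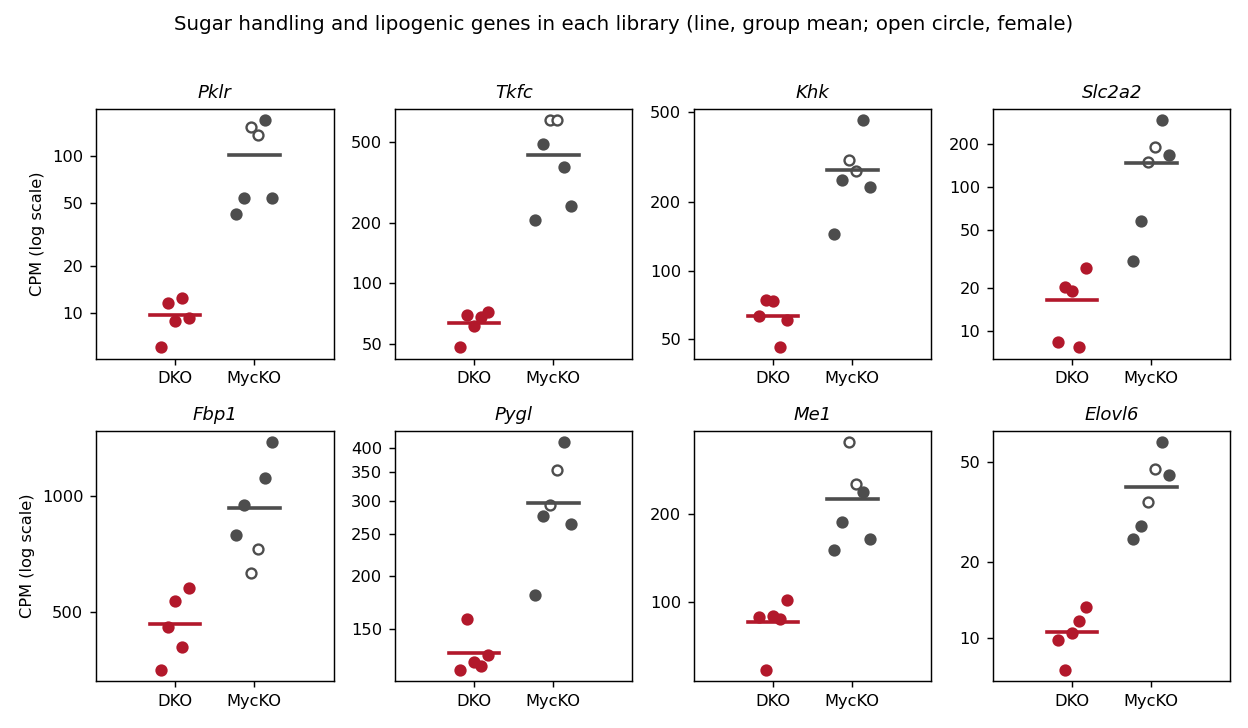
Level of 8 genes of sugar use and fat synthesis in each DKO and MycKO library, in CPM on a log scale (points; open circles, females; lines, group means). Every DKO library lies below every MycKO library in each panel, from 12.5 against 42.9 CPM at the nearest points of Pklr to 575 against 632 CPM at those of Fbp1.

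Txnip and Arrdc4, genes best known as MondoA targets, differed in the test. Txnip, which slows glucose uptake, had 153 to 259 CPM in DKO and 111 to 413 CPM in MycKO, and did not pass the test (log2 −0.11 ± 0.31, adjusted p = 0.85). Its relative Arrdc4 had 9.32 to 14.9 CPM in DKO and 8.87 to 37.8 CPM in MycKO (log2 −0.90 ± 0.28, adjusted p = 0.041), and lost the call when any single DKO library, or MycKO 1, MycKO 2 or MycKO 6, was left out (adjusted p = 0.050 to 0.12). Arrdc4 also lost the call by limma-voom, with length offsets, without WT 1, MycKO 1 and MycKO 2, and with the term for the division of libraries. In the list of pyruvate dehydrogenase and the TCA cycle, 4 of 34 members fell (11.8%, beside 7.52% lower over all genes) and none rose. The list median was 0.02, and with the term for the division of libraries none was called. Among the 4, Pdk1, a kinase that switches off pyruvate dehydrogenase, had 26.5, 25.3, 28.4, 21.3 and 29.9 CPM in DKO, against 55.3, 60.2, 93.7, 86.4, 77.6 and 65.2 CPM in MycKO. The groups did not overlap, and the log2 fold change was −1.31 ± 0.17 (adjusted p = 0.00028).

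Genes of fat synthesis moved both ways, and genes of fat oxidation were higher. In the list of lipogenesis and triglyceride synthesis, 6 of 39 members fell and 4 rose; the median log2 fold change was −0.13, beside 7.52% lower and 4.36% higher over all genes. Without WT 1, MycKO 1 and MycKO 2, 7 fell and 9 rose with a median of 0.09, without DKO 4, 4 fell and 2 rose, and with the term for the division of libraries none was called. Lower were enzymes that build fatty acids. Me1, the malic enzyme that supplies NADPH, had 88.8, 58.9, 89.5, 87.4 and 102 CPM in DKO, against 150, 187, 351, 254, 239 and 164 CPM in MycKO (log2 −1.20 ± 0.16, adjusted p = 0.00046). Elovl6, which lengthens palmitate, had 9.78, 7.49, 10.5, 11.7 and 13.2 CPM in DKO, against 24.7, 27.7, 34.6, 46.8, 59.6 and 44.4 CPM in MycKO (log2 −1.93 ± 0.29, adjusted p = 0.00079). Both genes had separate ranges. The lipogenic regulator Thrsp fell by 2.70 ± 0.64 in log2 units (adjusted p = 0.011). The fatty acid synthase Fasn had 43.3 to 62.7 CPM in DKO and 44.2 to 238 CPM in MycKO (log2 −1.27 ± 0.29, adjusted p = 0.0091; −0.58, adjusted p = 0.13, without WT 1, MycKO 1 and MycKO 2). Higher were acyltransferases that start glycerolipid synthesis. Gpam had 364, 300, 378, 334 and 297 CPM in DKO, against 234, 221, 201, 221, 181 and 168 CPM in MycKO (log2 0.70 ± 0.16, adjusted p = 0.0085), and Gpat3 rose by 1.05 ± 0.23 (adjusted p = 0.008). Gpam is the 1 ChREBP list member that rose, and its groups did not overlap. No member of the list of cholesterol synthesis and uptake fell, and 2 of 26 rose (7.69%, beside 4.36% of all genes; 6 without WT 2, WT 5 and MycKO 5 and 0 with the term for the division of libraries).

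Of 45 tested genes of fatty acid oxidation and the PPARα programme, which burns fat in fasting, 13 rose and none fell; the median log2 fold change was 0.39, beside 4.36% higher over all genes. The list summed to between 65493 and 76286 CPM in DKO and between 35756 and 55620 CPM in MycKO. With no sex term the count was 6, and with the term for the division of libraries it was 0 and the median −0.31. The genes that rose served peroxisomal and mitochondrial steps. Ehhadh, an enzyme of peroxisomal β-oxidation, had 11082, 8521, 11271, 12726 and 12278 CPM in DKO, against 3793, 7029, 5694, 4367, 1049 and 3702 CPM in MycKO (log2 1.55 ± 0.39, adjusted p = 0.015). Every DKO library lay above every MycKO library. Cpt2, which releases fatty acids inside mitochondria, rose by 0.67 ± 0.13 (adjusted p = 0.0046), the acyl-CoA synthetase Acsl1 by 0.76 ± 0.18 (adjusted p = 0.012; 0.052 with length offsets) and the thioesterase Acot2 by 1.79 ± 0.36 on the log2 scale (adjusted p = 0.0047; 0.93 with no sex term, adjusted p = 0.21).

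In the peroxisome list 6 of 39 members rose and 1 fell, with a median of 0.08, beside 4.36% higher over all genes. With length offsets 9 rose and the median was 0.21, and with the term for the division of libraries 1 rose, none fell and the median was −0.22. The transporter Abcd3, which carries long acyl-CoAs into the organelle, rose by 0.75 ± 0.18 (adjusted p = 0.013).

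Chaperones of the endoplasmic reticulum were higher in DKO. Hspa5 (BiP) is the chief chaperone of the endoplasmic reticulum, and its promoter is the textbook case of the endoplasmic reticulum stress response element, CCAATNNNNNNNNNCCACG, to which NF-Y and ATF6 bind. Of 30 tested genes of the unfolded protein response, 25 had a RefSeq window, and 9 of the 25 held this motif on either strand, as did 39 of all 32851 windows (0.119%). The motif was in 5 of the 11 members with a window that were called higher (Hspa5, Hsp90b1, Derl3, Creld2 and Syvn1) and in 4 of the 13 that were not called (Calr, Canx, Dnajc3 and Pdia6). The called carriers are printed with the fixed letters in capitals, CGTGG and ATTGG being the same motif read on the other strand (RefSeq, GRCm38.p6).
Hspa5, chr2:34771975-34772089, plus strand, motif 65 to 47 bases before the start: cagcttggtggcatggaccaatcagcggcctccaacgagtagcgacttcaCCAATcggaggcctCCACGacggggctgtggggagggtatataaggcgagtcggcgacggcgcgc
Hsp90b1, chr10:86705630-86705664, minus strand: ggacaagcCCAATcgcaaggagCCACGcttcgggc
Hsp90b1, chr10:86705525-86705559, minus strand: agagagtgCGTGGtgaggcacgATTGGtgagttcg
Derl3, chr10:75893234-75893268, plus strand: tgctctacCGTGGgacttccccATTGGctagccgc
Creld2, chr15:88819512-88819546, plus strand: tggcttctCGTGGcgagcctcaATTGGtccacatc
Syvn1, chr19:6046524-6046558, plus strand: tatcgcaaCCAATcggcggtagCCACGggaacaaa

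In the list of these 30 genes 13 rose and 1 fell; the median log2 fold change was 0.67, beside 4.36% higher and a median of −0.02 over all genes. The groups did not overlap at 7 members, all higher in DKO, beside 4.99% of all genes. Hspa5 had 2606, 2759, 883, 2040 and 1430 CPM in DKO, against 348, 428, 388, 476, 327 and 661 CPM in MycKO (log2 2.28 ± 0.40, adjusted p = 0.0022). Hsp90b1 (GRP94), the HSP90 of this compartment, had 1897, 2170, 700, 1756 and 991 CPM in DKO, against 397, 481, 375, 428, 314 and 575 CPM in MycKO (log2 1.91 ± 0.37, adjusted p = 0.0039). DKO 3 and DKO 5 were the lowest of the DKO libraries in both genes and still above every MycKO library. Derl3, which helps pull misfolded proteins out for degradation, had 84.2, 98.1, 4.43, 46.1 and 10.1 CPM in DKO, against 0.337, 0.885, 0.362, 0.730, 1.44 and 0.915 CPM in MycKO. Its log2 fold change was 6.12 ± 1.10 (adjusted p = 0.0024; 0.11 by limma-voom), and it ranked the 5 DKO libraries in the same order as Hspa5.

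The member that fell was Edem2, which trims sugars from misfolded glycoproteins (log2 −0.65 ± 0.15, adjusted p = 0.0097; 0.059 with no sex term). The other members that rose fold or check secreted proteins. The disulfide isomerases Pdia4 and Pdia3 rose by 1.80 ± 0.38 (adjusted p = 0.006) and 1.05 ± 0.26 (adjusted p = 0.014) on the log2 scale, the nucleotide exchange factor Hyou1 by 1.81 ± 0.39 (adjusted p = 0.0068), and Creld2 by 2.47 ± 0.53 (adjusted p = 0.0069). The co-chaperone Dnajb9 rose by 1.08 ± 0.20 (adjusted p = 0.0031), and Syvn1 (HRD1) and Sel1l, partners in a ubiquitin ligase of the membrane, by 1.28 ± 0.27 (adjusted p = 0.0062) and 0.95 ± 0.24 (adjusted p = 0.014; Sel1l 0.095 without WT 1, MycKO 1 and MycKO 2). Xbp1, which encodes a transcription factor of the response and whose splicing these counts do not show, had a log2 fold change of 0.27 ± 0.15 (adjusted p = 0.22). The response to ATF4 and CHOP did not follow as a group. Of its 23 genes 1 was higher (4.35%, beside 4.36% of all genes) and 1 lower (4.35%, beside 7.52%). The higher gene was Ddit3, which encodes CHOP, with 10.5, 16.7, 6.72, 7.89 and 7.71 CPM in DKO, against 3.57, 3.45, 2.21, 4.89, 4.55 and 2.52 CPM in MycKO (log2 1.59 ± 0.29, adjusted p = 0.0031). Its groups did not overlap.

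The summed level of the list spread widely within DKO, from 5359 to 12359 CPM, against 3890 to 5936 CPM in MycKO, so the lowest DKO library lay within the MycKO range. The count of higher members was 9 without WT 1, MycKO 1 and MycKO 2. With the term for the division of libraries no member was called and the median was 0.27.

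**Figure D4:**
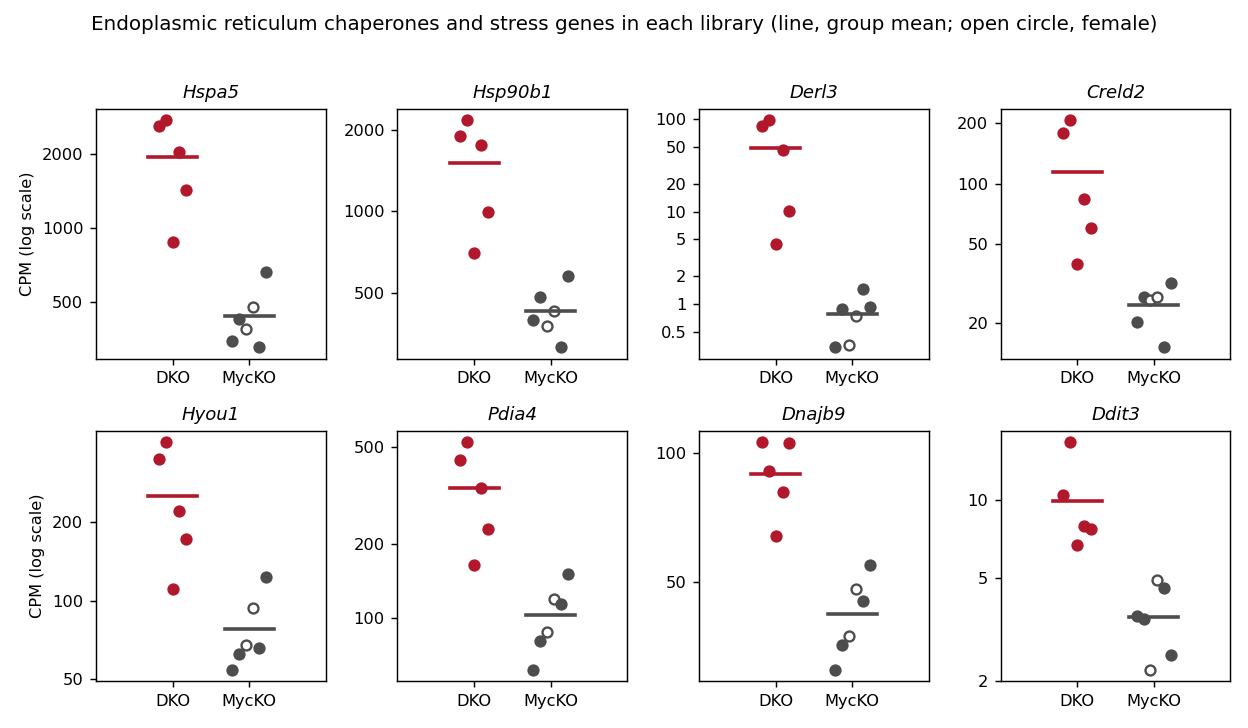
Level of 8 genes of the endoplasmic reticulum and its stress response in each DKO and MycKO library, in CPM on a log scale (points; open circles, females; lines, group means). DKO 1 and DKO 2 are the highest libraries for Hspa5 (2606 and 2759 CPM), and DKO 3 is the lowest of DKO (883 CPM), above the highest MycKO library (661 CPM).

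Genes of cytosolic ribosomes were lower. Of 49 large subunit proteins 41 fell and of 33 small subunit proteins 27 fell, with median log2 fold changes of −0.62 and −0.64, no member rose, and ranges did not overlap at 42 and 31 members, beside 7.52% lower and 11.2% without overlap over all genes. Rpl35a of the large subunit had 41.8, 44.7, 44.7, 34.9 and 30.4 CPM in DKO, against 76.6, 114, 106, 83.4, 112 and 96.6 CPM in MycKO (log2 −1.34 ± 0.19, adjusted p = 0.00063). Rps10 of the small subunit had 81.6, 78.6, 73.3, 65.2 and 49.4 CPM in DKO, against 124, 150, 148, 124, 142 and 126 CPM in MycKO (log2 −0.92 ± 0.15, adjusted p = 0.0011). Both genes had clearly separate ranges. These genes have short exons and many near-identical pseudogenes, between which the counting could split reads. With length offsets 28 large and 16 small subunit genes fell, with medians of −0.39 and −0.37. With the term for the division of libraries none was called, and the medians were −1.111 and −1.075. Genes that build ribosomes did not follow, with a median of −0.01. Of 70 members 5 were lower (7.14%, beside 7.52% of all genes) and 1 higher (1.43%, beside 4.36%).

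Nuclear genes for the respiratory chain were lower as well, and more weakly. Of 36 complex I subunits 13 fell and of 41 subunits of complexes II to V 14 fell, with medians of −0.49 and −0.33, and of 79 mitochondrial ribosomal proteins 23 fell, with a median of −0.33, beside 7.52% lower over all genes. Ndufa1 of complex I had 25.1, 30.2, 26.4, 16.1 and 14.8 CPM in DKO, against 49.1, 74.0, 51.6, 39.7, 65.8 and 55.9 CPM in MycKO (log2 −1.42 ± 0.24, adjusted p = 0.0017; −0.70 with length offsets, adjusted p = 0.0026). The 15 tested genes of the mitochondrial genome, whose share of counts was higher in DKO, gave no call and a median of 0.29; with length offsets 6 were higher and the median was 0.88, and without DKO 5 it was 0.05 with 1 lower. These counts depended on the processing and on single libraries. With length offsets 4, 2 and 6 genes of the 3 nuclear lists fell. With the term for the division of libraries none did, and the medians were −1.23, −0.98 and −0.85. The counts were 8, 7 and 10 without WT 2, WT 5 and MycKO 5, and 5, 5 and 15 without WT 1, MycKO 1 and MycKO 2. Without DKO 4, DKO 5, MycKO 2 or MycKO 5, taken in turn, complex I gave 5 or 6 calls, complexes II to V gave 5 and the mitochondrial ribosome 9 or 10, and without DKO 1 they gave 8, 7 and 14. Without DKO 3, complexes II to V gave 9 and the mitochondrial ribosome 14.

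Antigen processing and interferon genes were lower in DKO. Of 19 genes of the immunoproteasome and of class I antigen processing 16 fell and none rose; the median log2 fold change was −0.89, and 12 did not overlap, beside 7.52% lower and 11.2% without overlap over all genes. Psmb8 encodes an inducible catalytic subunit of the proteasome and had 9.45, 9.18, 9.85, 6.67 and 9.63 CPM in DKO, against 32, 40.1, 21.4, 16, 32.1 and 22.3 CPM in MycKO (log2 −1.76 ± 0.25, adjusted p = 0.00057). Psmb9, its neighbour, had 4.77, 3.77, 4.63, 5.10 and 4.05 CPM in DKO, against 13.7, 18.5, 11.2, 8.87, 17.4 and 9.61 CPM in MycKO (log2 −1.71 ± 0.19, adjusted p = 5.2e-05). Psmb9 was also among the 19 genes that parted WT females, MlxKO and DKO from WT males and MycKO. By position, 13 of the 19 list members lay on chromosome 17 between 33915899 and 37274484 (GRCm38), the segment that holds the major histocompatibility complex, and 12 of the 13 fell, with a median of −0.96. Of the 6 members elsewhere 4 fell, with a median of −0.62, among them Psmb10 on chromosome 8 (log2 −1.09 ± 0.24, adjusted p = 0.0071). The peptide transporter Tap2 fell by 0.97 ± 0.15 (adjusted p = 0.00084), and the class I heavy chain genes H2-K1 and H2-Q7 by 0.96 ± 0.20 (adjusted p = 0.0051) and 1.41 ± 0.26 on the log2 scale (adjusted p = 0.0031). The H2 genes differ between mouse strains and resemble each other, so their counts are uncertain. The count was 12 with length offsets (median −0.73) and 3 with the term for the division of libraries (median −1.19). None of the 32 genes of the constitutive proteasome was called.

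In the interferon list 15 of 46 genes fell and none rose, with a median of −0.68, beside 7.52% lower over all genes. Bst2, tetherin, which holds viruses at the cell surface, had 51.1, 49.0, 60.2, 48.2 and 55.7 CPM in DKO, against 99.6, 174, 106, 109, 182 and 98.9 CPM in MycKO (log2 −1.39 ± 0.23, adjusted p = 0.0017). Its groups did not overlap. Ifi27l2a and the transcription factor Irf7 fell by 2.09 ± 0.40 (adjusted p = 0.0039) and 1.37 ± 0.27 on the log2 scale (adjusted p = 0.0047). The count was 25 without WT 1, MycKO 1 and MycKO 2, 11 without MycKO 5 (median −0.45) and 10 without WT 2, WT 5 and MycKO 5 (median −0.37). With the term for the division of libraries it was 0 and the median was −0.60.

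Markers of Kupffer cells, the macrophages of liver, were lower. Of 20 genes 12 fell and none rose; the median log2 fold change was −0.91, beside 7.52% lower over all genes. Their sum was 305 to 542 CPM in DKO and 683 to 955 CPM in MycKO, with no overlap. C1qa, a subunit of complement C1q, had 30.2, 18.4, 21.6, 22.2 and 15.4 CPM in DKO, against 80.2, 81.5, 45.4, 40.7, 48.4 and 52.9 CPM in MycKO (log2 −1.49 ± 0.24, adjusted p = 0.0013). Cd5l, a secreted macrophage protein, had 43.2, 20.3, 37.7, 36.3 and 40.2 CPM in DKO, against 106, 114, 69.2, 55.2, 70.9 and 102 CPM in MycKO (log2 −1.55 ± 0.25, adjusted p = 0.0013). The groups of both genes did not overlap. In bulk liver, fewer cells of a type and less RNA per cell cannot be told apart. The count of lower markers was 7 without MycKO 2, 7 without WT 1, MycKO 1 and MycKO 2 and 0 with the term for the division of libraries, where the median was −0.99. With length offsets 9 markers fell and the median was −0.77.

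Of 12 tested T and NK cell markers 4 fell, beside 7.52% lower over all genes, and the list summed to 4.2 to 8.3 CPM in DKO and 8.0 to 19.6 CPM in MycKO, with Trac, Trbc1 and Trbc2 at 0 counts in both groups. Ccl5 fell by 1.81 ± 0.37 (adjusted p = 0.0052; 0.057 without WT 1, MycKO 1 and MycKO 2) and Cd3g, part of the T cell receptor complex, by 2.50 ± 0.61 on the log2 scale (adjusted p = 0.013; log2 −3.79 without DKO 1). Cd3g was near the floor, with 13 counts over all DKO libraries and 93 over all MycKO libraries. It had a value in 18 of the alternative fits, against 24 for Ccl5. The count was 1 without MycKO 2, 7 without MycKO 6, 0 without WT 1, MycKO 1 and MycKO 2 and 0 with the term for the division of libraries. No marker of sinusoidal endothelium (20 tested), stellate cells (16), B and plasma cells (8), neutrophils (5), erythroid cells (7) or hepatocytes (12) was called. Among 13 tested cholangiocyte markers 2 rose, beside 4.36% higher over all genes, among them Pkhd1 by 1.29 ± 0.32 on the log2 scale (adjusted p = 0.015; 0.068 with length offsets and 0.088 without WT 1, MycKO 1 and MycKO 2). With the term for the division of libraries none was called. The sum of that list was 102 to 186 CPM in DKO and 78.5 to 104 CPM in MycKO. Whether the fall in class I and interferon genes moved with the number of immune cells was not tested.

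Genes of hepatocyte secretion and transport were lower in part. Of 43 coagulation and complement genes 12 fell, with a median of −0.32, and of 44 genes for albumin, apolipoproteins and other secreted proteins 11 fell, with a median of −0.34, and none rose in either list, beside 7.52% lower over all genes. F7, coagulation factor VII, had 37.6, 43.8, 47.3, 40.4 and 41.7 CPM in DKO, against 67.8, 72.0, 67.3, 66.4, 88.2 and 83.6 CPM in MycKO (log2 −0.85 ± 0.13, adjusted p = 0.00077). Its ranges were separate. The complement proteases C1ra and C2 fell by 0.62 ± 0.10 (adjusted p = 0.0011) and 0.72 ± 0.12 (adjusted p = 0.0018; 0.068 with no sex term), and Apoc2, the activator of lipoprotein lipase, by 1.49 ± 0.23 on the log2 scale (adjusted p = 0.00084). The bile acid uptake transporter Slc10a1 (NTCP) fell by 0.83 ± 0.15 (adjusted p = 0.0029). The counts of the 2 lists were 0 and 8 with the term for the division of libraries (medians −0.73 and −0.97), 5 and 4 with length offsets, 5 and 7 without WT 2, WT 5 and MycKO 5, 6 for coagulation without DKO 1, 7 for coagulation and 6 for secretion without DKO 4 or MycKO 2, 6 for secretion without DKO 5, 5 and 7 without MycKO 5, and 7 for coagulation without MycKO 6.

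Sex bears on some drug and hormone metabolism genes, since only MycKO held females. Of 36 male-biased liver genes 9 fell, and of 35 female-biased genes 5 rose, after the sex term, beside 7.52% lower and 4.36% higher over all genes. With no sex term 4 male-biased genes fell, and of the female-biased genes none rose and 4 fell. With the term for the division of libraries 2 male-biased genes fell and no female-biased gene was called, and 2 female-biased genes rose without DKO 1 or DKO 5 and 3 without DKO 3, DKO 4, MycKO 2, MycKO 5 or MycKO 6. Mup20, a male urinary protein of a family of near-identical genes, had 3252, 3495, 3729, 1592 and 4008 CPM in the DKO males, against 6897, 10948, 7924 and 10418 CPM in the MycKO males and 60.0 and 89.1 CPM in the MycKO females. Among males its groups did not overlap (log2 −1.35 ± 0.24, adjusted p = 0.0024; −0.91 and adjusted p = 0.58 with no sex term). Cyp2b9, a female-biased P450, had 2.64, 3.39, 4.27, 0.147 and 9.58 CPM in DKO, against 0, 0, 0.585 and 0.0572 CPM in the MycKO males and 179 and 272 CPM in the MycKO females. Its log2 fold change was 5.04 ± 1.01 with the sex term (adjusted p = 0.0046) and −4.24 without it. Of 44 P450 genes 5 fell and 1 rose, and of 48 conjugation enzymes 7 fell and none rose, beside 7.52% lower and 4.36% higher over all genes. With length offsets 3 and 2 fell, and 1 and 2 rose. With the term for the division of libraries none was called in either list. Lower genes of these kinds included Cyp2d40 (log2 −1.83 ± 0.33, adjusted p = 0.0029), Cyp2c67 (−1.69 ± 0.34, adjusted p = 0.0047) and the glucuronosyltransferase Ugt1a9 (−2.28 ± 0.45, adjusted p = 0.0042).

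Beyond these groups, the smallest p-values among lower genes included Hcn3, which encodes a cation channel, with 0.139, 0.0547, 0, 0.0981 and 0.109 CPM in DKO, against 2.02, 2.94, 5.25, 4.60, 4.73 and 2.12 CPM in MycKO (log2 −5.38 ± 0.61, adjusted p = 5.2e-05). Every DKO library held 3 counts of it or fewer. Igf2bp2, an mRNA-binding protein, had 0.510, 0.437, 0.391, 0.343 and 0.164 CPM in DKO, against 3.47, 3.36, 4.89, 4.02, 0.945 and 3.26 CPM in MycKO (log2 −2.82 ± 0.36, adjusted p = 0.00023). Tmie fell by 2.24 ± 0.29 (adjusted p = 0.00027) and Plcxd1 by 3.03 ± 0.42 (adjusted p = 0.00054). Cyb561, on chromosome 11, fell by 2.55 ± 0.32 in log2 units (adjusted p = 0.00018) and was among the 19 genes that parted the 11 libraries from the other 10. BC018473, an antisense transcript on the same chromosome, was another, with 380 counts in DKO and 2 in MycKO, a ratio of depth-scaled counts of 238 (exact 95% interval 65.5 to 1974, counting error only).

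Among higher genes, P2ry1, a receptor for extracellular ADP, had 25.6, 21.5, 29.2, 18.7 and 21 CPM in DKO, against 8.91, 12.8, 8.94, 9.49, 11.4 and 9.72 CPM in MycKO (log2 1.22 ± 0.18, adjusted p = 0.00063). Pknox2, a homeodomain gene, had 6.07, 4.65, 4.60, 4.22 and 5.85 CPM in DKO, against 1.54, 1.03, 1.70, 1.13, 1.35 and 0.858 CPM in MycKO (log2 2.14 ± 0.36, adjusted p = 0.0014). Neither gene had overlapping groups. Mtmr4 rose by 0.93 ± 0.14 (adjusted p = 0.0007), the splicing factor Hnrnph1 by 0.66 ± 0.10 (adjusted p = 0.00084) and Piga, of GPI anchor synthesis, by 1.48 ± 0.23 (adjusted p = 0.00084). The largest falls among genes of at least 1 CPM included Serpina12, with 0 to 0.228 CPM in DKO and 0.869 to 38.6 CPM in MycKO (log2 −5.96 ± 1.15, adjusted p = 0.0039; 0.075 by limma-voom), the regulator of G protein signalling Rgs16, with 0.328 to 3.15 CPM in DKO and 19 to 191 CPM in MycKO (−4.47 ± 0.86, adjusted p = 0.0039), and Hsd3b5 (−6.28 ± 1.31, adjusted p = 0.0059; −2.48, adjusted p = 0.095, without MycKO 5; adjusted p = 0.17 by limma-voom). Obp2a, a lipocalin gene, fell by 5.02 ± 0.74 (adjusted p = 0.00071), and Atp2b2, a calcium pump, by 5.01 ± 1.06 on the log2 scale (adjusted p = 0.0063; log2 −8.16 without DKO 1). Ptgds, a prostaglandin D synthase, had 1 count in DKO and 142 in MycKO, a ratio of depth-scaled counts, MycKO over DKO, of 113 (exact 95% interval 20.001 to 4504).

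Other large rises were those of Lpar3, Msmp and Pak6, at log2 3.11 ± 0.56, 3.53 ± 0.69 and 2.75 ± 0.42 (adjusted p = 0.0024, 0.0039 and 0.00084). Msmp, Aqp3 (2.73 ± 0.71, adjusted p = 0.018) and Myo15b (2.64 ± 0.45, adjusted p = 0.0017) lost the call with no sex term (adjusted p = 0.12, 0.10 and 0.065).

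The comparison with Myc intact, MlxKO against WT, shares no library with DKO against MycKO, though both used a sex term fitted on WT and MycKO. MlxKO and WT differ in Cre and strain label as well as in Mlx, and these cannot be told apart. In MlxKO over WT 227 of 13397 genes were called (1.69%), 85 higher (0.634%) and 142 lower (1.06%). Called in both were 172, all in the same direction, which is 75.8% of the MlxKO calls and 10.8% of those of DKO. Of the 1592 genes called in DKO over MycKO, 1556 had the same sign in MlxKO over WT (97.7%), beside 78.2% of all genes. The division of libraries marked by Kpna2 also lay between MlxKO and the WT males, so it ran along both comparisons.

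The changes were mostly smaller in estimate in MlxKO over WT. The median log2 fold change of the genes called higher was 0.65 in DKO over MycKO and 0.43 in MlxKO over WT, and of those called lower −0.76 and −0.50. These medians were over genes chosen by the first comparison, so the larger value there is partly fixed by the choice. Pklr had log2 −2.27 in MlxKO over WT (adjusted p = 0.0067), Tkfc −1.69 (adjusted p = 0.0017), Khk −1.65 (adjusted p = 0.025) and Slc2a2 −3.23 (adjusted p = 0.018). The ChREBP list had a median of −0.37 in MlxKO over WT, with 6 of 39 lower, and the glycolysis list −0.29, with 5 of 36 lower. For the unfolded protein response the median was 0.50, with 2 of 30 higher, and Derl3 (log2 6.09, adjusted p = 0.016) and Hspa5 (1.71, adjusted p = 0.048) were those 2. Hspa5 had 297, 822, 1934 and 1812 CPM in MlxKO, against 296, 324, 384, 845, 403 and 307 CPM in WT, so MlxKO 1 was not raised and the groups overlapped.

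**Figure D5:**
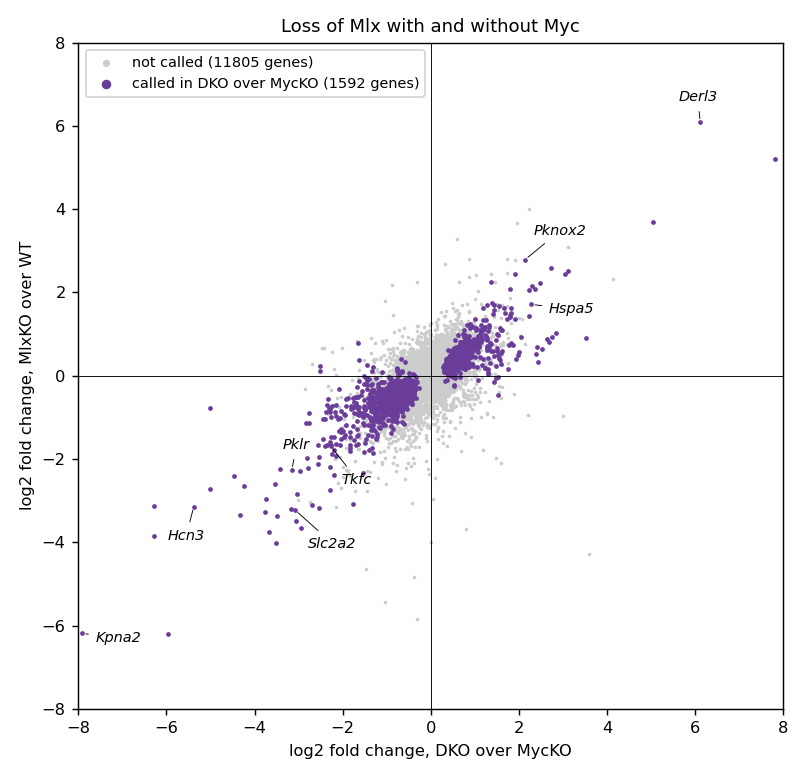
Log2 fold change of each tested gene in MlxKO over WT (vertical axis) against DKO over MycKO (horizontal axis), with the genes called in DKO over MycKO in purple. The axes stop at 8, which leaves out 4 genes. Called genes lie almost wholly in the quadrants of equal sign (1556 of 1592).

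Both comparisons were set against each other gene by gene as the difference of their log2 fold changes (the difference of Mlx effects). This difference holds the Cre and strain label of MlxKO over WT as well as the state of Myc. By edgeR no gene was called (smallest adjusted p = 0.099), 469 genes had an unadjusted p under 0.05, and DESeq2 called 4 and limma-voom 0. A p that misses the threshold does not show that the effects were equal. The smallest p-values included Gt(ROSA)26Sor, a noncoding transcript of the locus that holds Cre-ERT2, with log2 0.69 ± 0.30 in DKO over MycKO, where both groups carry the insertion, and −1.81 in MlxKO over WT, where WT is labelled C57/B6. Another was Dynlt1b, a dynein light chain, with log2 −1.32 ± 0.21 (adjusted p = 0.0013; −0.78 and adjusted p = 0.070 with length offsets) in DKO over MycKO and 0.21 in MlxKO over WT.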

How the data were processed

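Poly(A) RNA of mouse liver was sequenced, and the authors deposited a table of total read counts per gene and library. Per the submitters' processing notes the build was GRCm38.p6. Details of the aligner, the counter and the strand setting were not given in the sources used here, and per the labels' protocols no molecular identifiers are named, so intervals cover counting error only. The table had 41549 genes, of which 20937 had no count, and 63 normalized columns were not used. The authors' deposited table also holds p-values and log2 fold changes of their comparison, with the fold written as MycKO over DKO. Of the genes tested here 1220 had a positive adjusted p under 0.05 in it, and 969 of these were called here. Genes without a positive deposited value were left out of this count.

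The deposited counts were tested in edgeR 4.0.16 (R 4.3.3; filterByExpr with a minimum count of 10, TMM, glmQLFit and glmQLFTest). The fit held all 21 libraries of this age, which share an estimate of the spread, with group and sex terms (common biological coefficient of variation 0.261, 16 residual degrees of freedom). Genes with an adjusted p under 0.05 (Benjamini-Hochberg, over 13397 genes) were called. Fold changes carry the sex term and can differ from ratios of the levels printed. No replicates agreed within sampling noise (chi-square per gene 29.5 to 286). On simulated counts for this comparison, 56 of 96 genes changed 2-fold, 96 of 97 changed 4-fold and 4 of 12979 unchanged genes were called. The difference of Mlx effects called 8 unchanged genes there. The simulation had the same spread for all genes and no sex effect, division of libraries or trend with exon length. It therefore does not show how often such structure gives false calls in these data. DESeq2 1.42.0 and limma 3.58.1 (voom) were alternatives. Exon lengths were from GENCODE M21, and promoter windows from RefSeq.

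Genes were named by a rule: the network of Mlx and Mxd, the 10 smallest p-values and the 8 largest changes in each direction, the most significant members of each list, and the smallest p-values of the difference between Mlx effects. Some rule members are not printed, and other list members were added as examples after their values were seen. The members, lists and alternatives were chosen with earlier results of these data known.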

Additional observations from a re-analysis of the deposited data

Results flagged for a closer look

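In 84 groups of libraries the highest or lowest library was set against the others with Dixon's 95% limit, and 5 passed it. Each group held 1 gene, the level of short against long genes or the mitochondrial share, in DKO or MycKO. Chance flags about 1 in 20 groups. Pygl stood at 158 CPM in DKO 2, where the next DKO library had 130 CPM, and every DKO library was still below every MycKO library. Psmb8 stood at 6.67 CPM in DKO 4, where the next had 9.18 CPM. Serpina12 reached 38.6 CPM in MycKO 5, where the next had 8.35 CPM. Gm10184 had 0.434 CPM and BC018473 0.0964 CPM in MycKO 1, and no counts in the other MycKO libraries.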

How the results depend on the processing

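The 1592 calls became 1010 with length offsets and 78 with the term shared by WT females, MlxKO and DKO. They ran from 892 to 1772 when each DKO or MycKO library was left out, and WT and MlxKO libraries were not left out singly here. The count was 2166 with DESeq2, 1647 with limma-voom, 1578 with RLE scaling, 1201 with no filter on low counts, 1850 with no sex term, 2020 in males only, 2138 with DKO and MycKO alone and 1098 where a 1.5-fold change was also asked. For the difference of Mlx effects, edgeR's 0 calls became 4 with DESeq2, 1 without WT 2, WT 5 and MycKO 5 and 2 without WT 1, MycKO 1 and MycKO 2, and ran from 0 to 1 when each library was left out. Log2 fold changes changed sign for Myc (0.20), Mlxip (0.77) and Txnip (0.067) without WT 1, MycKO 1 and MycKO 2, and for Mlxip with limma-voom (0.16). Leaving out each DKO or MycKO library gave −0.22 to 0.41 for Mlxip, turned without DKO 2, DKO 3 or MycKO 1. For Txnip it gave −0.28 to 0.090, turned without MycKO 1 or MycKO 6. With no sex term Cyp2b9 turned to −4.24. With the shared term the sign changed for Mlxipl (0.45), Xbp1 (−0.39), Pdia3 (−0.050), Kpna2 (5.70), Gm10184 (−8.70) and BC018473 (−3.03). The cause was not tested. With that term Tkfc, Apoc2, Serpina12, Mup20, Gapdh, H2-K1 and Bok kept the call, and the other called genes named in the text lost it. No paired analysis was possible because the labels give the groups no shared replicate numbers. Depth limits genes near the floor, such as Hcn3, Serpina12 and Cd3g in DKO.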

Other observations

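Genes of the lysosome, the compartment that breaks down cell material, were lower in part, with 7 of 49 tested members lower in DKO and none higher, beside 7.52% lower over all genes. Npc2, which carries cholesterol out of lysosomes, fell by 0.70 ± 0.13 (adjusted p = 0.0037), the glucuronidase Gusb by 0.84 ± 0.16 (adjusted p = 0.0042) and the protease Ctsh by 0.72 ± 0.14 on the log2 scale (adjusted p = 0.0047). In the Bcl2 family 4 of 19 genes fell, beside 7.52% lower over all genes, with a median log2 fold change of −0.27 (1 gene and −0.10 with length offsets), among them the pro-apoptotic Bok (log2 −0.88 ± 0.20, adjusted p = 0.0091; 0.062 without WT 1, MycKO 1 and MycKO 2) and Bax (−0.67 ± 0.17, adjusted p = 0.016; −0.35 with length offsets, adjusted p = 0.12). That count was 2 when DKO 1, DKO 3, DKO 4, DKO 5 or MycKO 5 was left out. With the term for the division of libraries no lysosome gene was called, and of the Bcl2 family Bok alone.

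Cell cycle genes gave no common direction, with 1 of 43 higher (2.33%, beside 4.36% of all genes) and 2 lower (4.65%, beside 7.52%). Rrm2, the inducible subunit of ribonucleotide reductase, had 1.44, 1.20, 0.880, 1.23 and 0.930 CPM in DKO, against 6.31, 9.41, 12.2, 9.57, 3.38 and 2.29 CPM in MycKO (log2 −2.14 ± 0.37, adjusted p = 0.0017). The primase Prim1 fell by 1.33 ± 0.29 (adjusted p = 0.0069), and E2f8, a repressor of the E2F family that favours polyploid hepatocytes, had 15.5, 10.2, 22.4, 15.5 and 21.6 CPM in DKO, against 5.45, 5.41, 10.2, 8.91, 7.16 and 4.23 CPM in MycKO (log2 1.49 ± 0.29, adjusted p = 0.0039). Among hepatocyte transcription factors 4 of 36 rose (11.1%, beside 4.36% of all genes; 2 without DKO 1), and Onecut2 was the one with the smallest p (log2 0.90 ± 0.20, adjusted p = 0.0072). Etnppl, a periportal gene of ethanolamine breakdown, had 22.0 to 40.2 CPM in DKO and 66.4 to 248 CPM in MycKO (log2 −2.76 ± 0.40, adjusted p = 0.00069). In the zonation lists 2 of 23 periportal genes were lower (8.70%, beside 7.52%), Etnppl among them, and 2 of 24 pericentral genes were higher (8.33%, beside 4.36%; 1 to 4 when single libraries were left out), led by the glutamate transporter Slc1a2 (log2 0.64 ± 0.12, adjusted p = 0.0035; 0.33 with length offsets, adjusted p = 0.12). Near Mlx the share of called genes was 14.1% within 10 Mb (35 of 248), beside 11.9% of all genes.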
